A study of Sus scrofa with 11 samples.

Results

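The genes described here are those of the cytosolic ribosome and of the factors that start and extend protein chains on it. They were taken by name: rows of the gene table whose symbol starts with RPL or RPS plus a digit, S6 kinase genes left out, or with EIF or EEF. Of 67 such rows among 25322, 63 reached at least 1 CPM (counts scaled to the library total) in at least 4 of the 11 pigs and are the members. By name they comprise 10 genes of the large subunit (RPL), 15 of the small subunit (RPS), 33 initiation genes (EIF) and 5 elongation genes (EEF). The EIF and EEF genes are called factor genes here. Those names also take in genes that act on factors, such as the kinases EIF2AK1, EIF2AK3 and EEF2K and the EIF4E-binding EIF4EBP1. The RPL and RPS names likewise take in paralogs and relatives such as RPL7L1. The 4 rows below that level were RPL10L, EIF4E1B, EIF4E3 and EIF2AK2, which reached 1 CPM in 0, 0, 1 and 2 pigs. The lowest fourth-highest level among members was 3.22 CPM, that of EIF2AK1, and all 63 members reached 1 CPM in every pig.

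The tissue was longissimus lumborum, a back muscle, taken from 11 female pigs aged 23 weeks. The study sorted the animals on fibre types counted in that muscle. The 7 fibre1 pigs had over 17% type I and under 70% type IIB fibres. The 4 fibre2B pigs had under 8% type I and over 70% type IIB fibres. The labels give these bounds and no percentage per pig. Type I fibres are slow and oxidative, and type IIB fibres are fast and glycolytic.

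A ribosome joins a large and a small subunit, each built from ribosomal RNA and a set of proteins made in near-equal numbers. Initiation factors load the small subunit with the first tRNA and bring it to the cap of a messenger RNA. Elongation factors then deliver each further tRNA and move the ribosome along. In muscle, the growth of fibres rests in large part on this machinery, and the kinase complex mTORC1 is a main control of it. In mammals the messages of ribosomal proteins and of several elongation factors begin with a terminal oligopyrimidine tract, which lets mTORC1 set their translation together.

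Total gene counts ran from 14832736 to 36374829 per pig. By edgeR's quasi-likelihood test over all genes, 1021 of 11329 tested genes, 9.01%, had a Benjamini-Hochberg adjusted p under 0.05, with 4.38% higher in fibre1 and 4.63% higher in fibre2B. That total was 0 without fibre2B pig 14, where 2436 genes had an unadjusted p under 0.05, and 28 without fibre1 pigs 5 and 6. Without 1 of fibre1 pigs 1, 2, 5 and 6 or of fibre2B pigs 10 and 16 it was 300 to 478, and without fibre1 pig 12 it was 1548. Without TMM factors it was 157, split into 53 and 104, against 496 and 525 with them, and the median log2 fold change of all genes was then -0.19 in place of 0.0073. The 10 most abundant nuclear genes took 45.2% and 44.1% of the counts in fibre1 pigs 5 and 6, against 29.5% to 36.8% in the other 9 pigs. The muscle fibre genes ACTA1, DES, TNNC2 and MYL1 together held 125772 to 258702 CPM in fibre1 and 117850 to 142409 CPM in fibre2B, and 4 further listed muscle genes, CKM, MB, TTN and ACTN3, were not analysed here.

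Most of the 25 ribosomal protein members had slightly lower values in fibre1 than in fibre2B, in both subunits, and few of them passed the test. They are only the genes with a matched symbol, which 11804 of 25322 rows had, and not the whole ribosome. Of 25 ribosomal protein genes 22 had a negative log2 fold change (fibre1 minus fibre2B), 88% against 49.3% of all tested genes, with a median of -0.22 against 0.0073. The ribosomal protein median was -0.15 without fibre2B pig 14 and -0.42 without TMM factors. The 4 tested proteins of the ribosome outside the naming rule, RPLP1 among them, had a median of 0.0077, with 2 negative and 2 positive. Of 38 factor genes 15 had a negative log2 fold change, and their median was 0.13, whereas without TMM factors 26 had a negative one and the median was -0.11. The factor median was 0.0694 without fibre1 pig 5 and 0.19 without fibre1 pig 7. Over all genes tested, 1 ribosomal protein gene (RPS27L, 4% of 25) and 1 factor gene (EIF4G1, 2.63% of 38) did, both shares below the 9.01% of all genes. At an unadjusted p under 0.05, 7 ribosomal protein genes, 28%, were lower in fibre1 and 0 higher, where 14.7% of all genes were lower and 14.2% higher. Of these 7, 6 were small-subunit genes and 1 was a large-subunit gene. Of the factors 5 were lower and 5 higher at that level. The ribosomal protein genes rose and fell together over the 11 pigs, with a median correlation between pairs of 0.58, against 0.11 among factors. Their counts are therefore not 25 separate observations, and the replicates remain 7 and 4 pigs. DESeq2 called 5 ribosomal protein and 2 factor genes, while it called 15.4% of all genes. Ribosomal protein genes have many processed pseudogenes in mammals, and the counts of all of them are uncertain to that extent. In whole muscle, fewer cells of a type and less RNA per cell cannot be told apart.

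**Figure D1:**
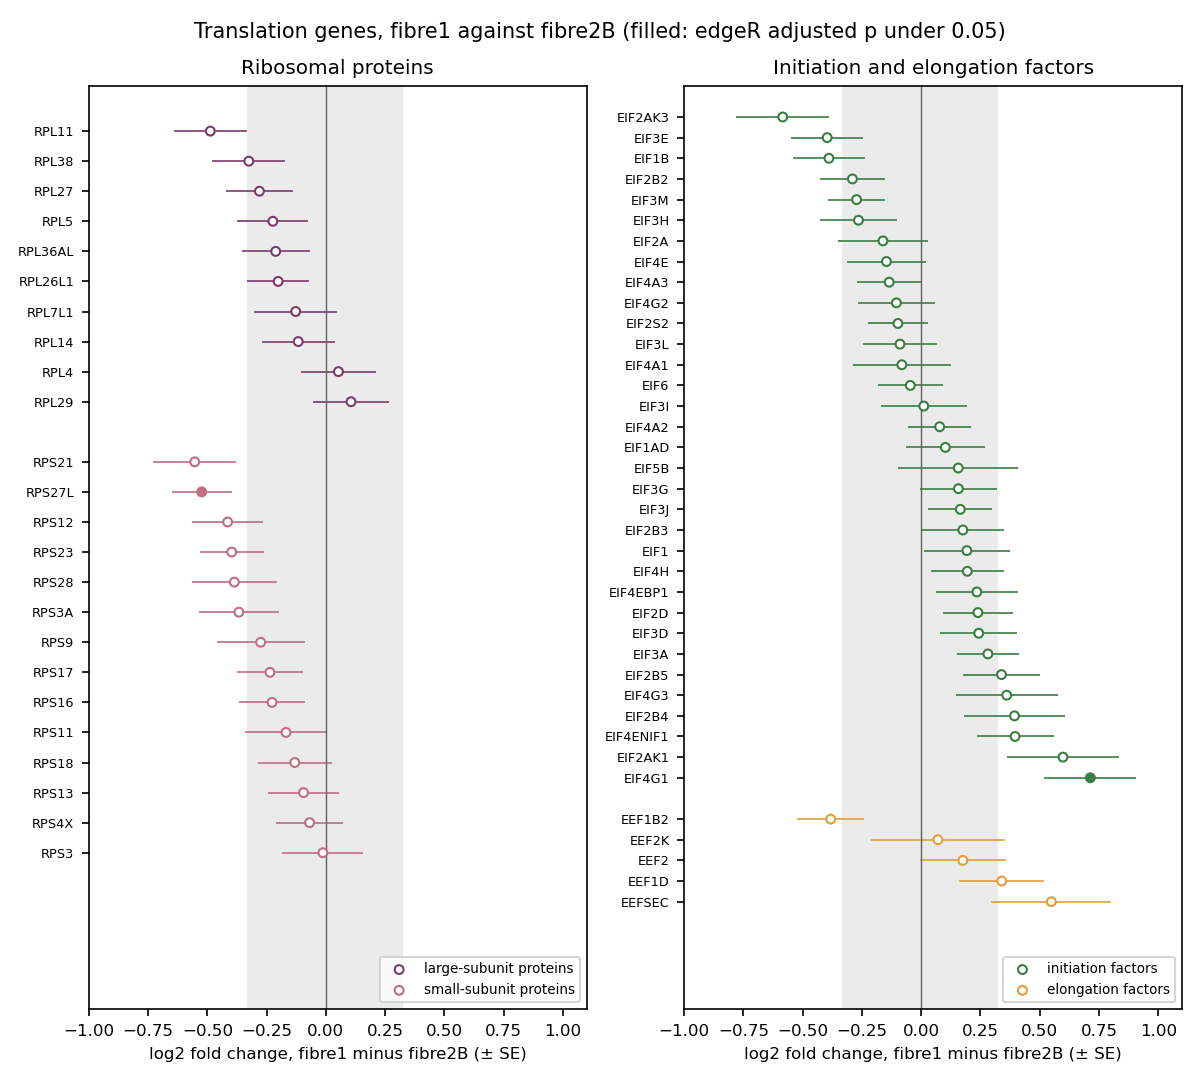
Log2 fold change (fibre1 minus fibre2B, dot) with its standard error (bar) for 62 of the 63 genes, by class; filled dots passed an adjusted p of 0.05 and the grey band spans the lower to the upper quartile of all tested genes. In the left panel 22 ribosomal protein genes lie left of 0. The 38 genes named EIF or EEF lie on both sides, from the kinase gene EIF2AK3 at -0.58 to EIF4G1 at 0.71.

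Shares of whole libraries were read next. They cover the 25 and 38 named members alone: genes without a matched symbol, such as RPL3, RPS6, EEF1A1 and EEF1A2, and those named otherwise, such as RPLP1 (4991 CPM in fibre1, against 4823 CPM in fibre2B, means), are outside them. The 25 ribosomal protein genes took 1.24%, 1.54% and 1.79% of the counts in fibre1 (lowest, median, highest) and 2.05%, 1.86%, 2.36% and 1.796% in fibre2B pigs 10, 11, 14 and 16. For these 25 genes the groups did not overlap, though the highest fibre1 pig (pig 7, 1.793%) and the lowest fibre2B pig (pig 16, 1.796%) were almost equal. A gap this small can close when other genes of the ribosome, such as the abundant RPLP1, are added. Whether the groups stay apart for the whole ribosome was not tested. Fibre1 averaged 1.53 ± 0.20% (SD, n = 7), against 2.02 ± 0.25% (SD, n = 4) for fibre2B. The 38 factor genes took 0.783 ± 0.074% in fibre1 and 0.864 ± 0.050% in fibre2B, with overlap. The 95% Wilson interval of any of these shares was at most 0.00772 percentage points to either side, which covers counting error only.

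A share of counts moves with the few most abundant genes, so both classes were also set against each other within each library. The mean log2 level of the 25 ribosomal protein genes minus that of the 38 factor genes was 2.38, 2.59 and 2.65 in fibre1 (lowest, median, highest) and 2.90, 2.69, 2.92 and 2.74 in fibre2B pigs 10, 11, 14 and 16. Each fibre2B pig lay above each fibre1 pig. The mean was 2.53 ± 0.12 in fibre1 and 2.81 ± 0.11 in fibre2B (SD), a difference of -0.28 on the log2 scale. The mean log2 level of the ribosomal protein genes alone overlapped, at 8.50 to 8.96 in fibre1 and 8.80 to 9.08 in fibre2B. Fibre1 pig 5 (8.96) was above fibre2B pigs 11 (8.80) and 16 (8.81). That pig also had the highest factor mean, 6.326, next to 6.323 in fibre1 pig 6. No p is given for these values or for the shares, since the genes were chosen with earlier results of these data known.

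**Figure D2:**
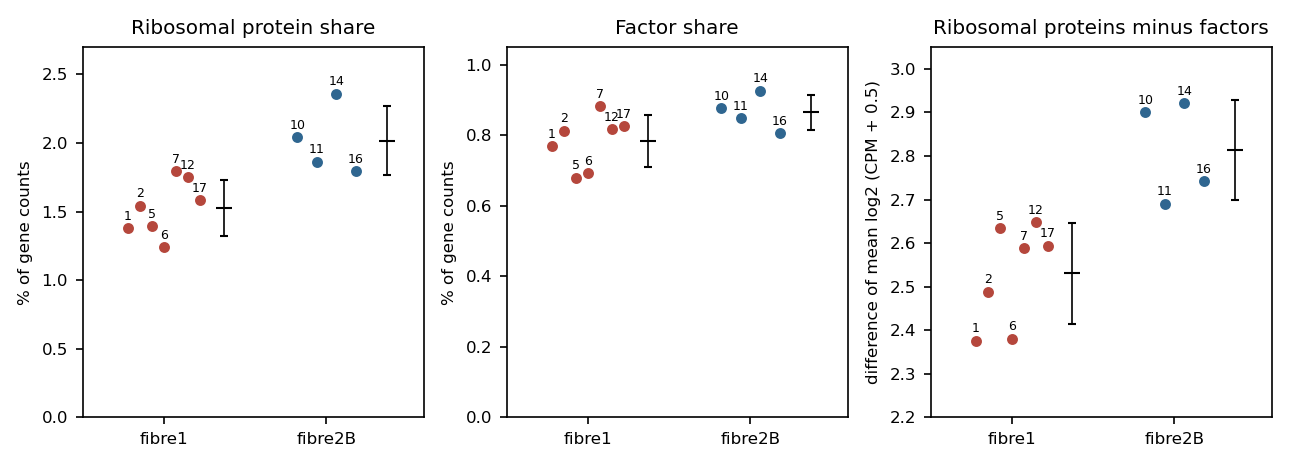
Share of gene counts held by ribosomal protein genes (left, %) and by factor genes (middle, %), and the difference of their mean log2 (CPM + 0.5) (right, axis not from 0), for each numbered pig with mean ± SD beside the dots. Left and right, each fibre1 pig is below each fibre2B pig, with 1.793% against 1.796% at the nearest point on the left. In the middle the groups overlap. The left panel covers the 25 named members alone, without RPLP1 and others.

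Pigs differed within groups as well. In fibre1 pig 1, 0 of 25 ribosomal protein genes were above their own mean over the 11 pigs, against 23 of 25 in each of fibre2B pigs 10 and 14. In fibre2B pigs 11 and 16 the count was 9 and 14. Fibre1 pig 5 stood apart in its group with 18 of 25 above. Of the factor genes, 27 and 26 of 38 were above their mean in fibre1 pigs 5 and 6, the pair with the highest share of the 10 most abundant genes. Leaving out these 2 pigs gave medians of -0.26 for ribosomal protein genes and 0.0065 for factor genes. With that share as a covariate the medians were -0.26 and 0.0164.

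**Figure D3:**
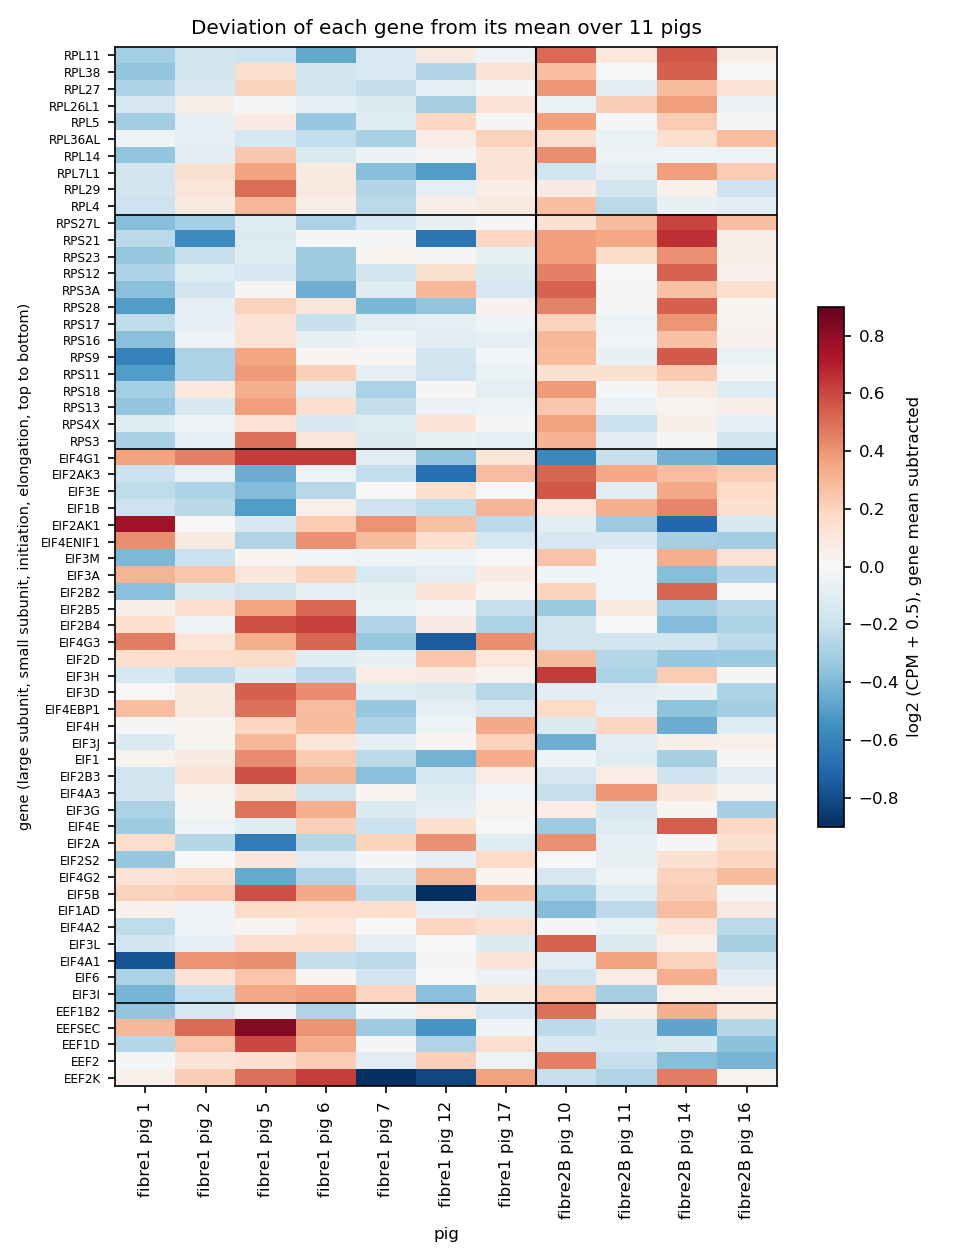
Deviation of each of 62 genes (row) from its own mean over the 11 pigs (column) on the log2 (CPM + 0.5) scale, red above and blue below, with lines between classes and between groups. Ribosomal protein rows are all blue in fibre1 pig 1, with 0 above their mean, and mostly red in fibre2B pigs 10 and 14.

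None of the 10 genes of the large subunit passed by edgeR and 1 passed by DESeq2. At an unadjusted edgeR p under 0.05, 1 was lower in fibre1 (10%, beside 14.7% of all genes) and 0 higher. Of the 10 genes 8 had negative values, and the median log2 fold change was -0.21. RPL11, which besides its place in the ribosome binds MDM2 in mammals and so stabilises p53, had 498, 611 and 723 CPM in fibre1 (lowest, median, highest), against 976, 729, 1009 and 709 CPM in fibre2B pigs 10, 11, 14 and 16. Only fibre1 pig 12 (723) exceeded the lowest fibre2B pig. Its log2 fold change was -0.49 ± 0.15 (SE; edgeR adjusted p = 0.0606). It passed without fibre1 pig 12 (adjusted p = 0.0415), with quality weights (0.0462) and with DESeq2 (0.0142), and the 25 alternatives gave 0.0142 to 0.200. RPL38, a small protein of the large subunit, averaged 512 ± 68.7 CPM across fibre1, against 641 ± 118 CPM across fibre2B (SD; log2 fold change -0.33 ± 0.15, edgeR adjusted p = 0.181), and -0.19 without fibre2B pig 14. RPL27 averaged 537 ± 63.1 CPM across fibre1, against 653 ± 93.9 CPM across fibre2B (-0.28 ± 0.14, edgeR adjusted p = 0.2098). Fibre2B pigs 10 and 14 were the highest of the 11 pigs for RPL11, RPL38 and RPL27.

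RPL26L1, a paralog of RPL26, averaged 26.1 ± 2.60 CPM across fibre1, against 29.9 ± 4.58 CPM across fibre2B (-0.20 ± 0.13, edgeR adjusted p = 0.321), and -0.0997 without fibre2B pig 14. At the other end RPL29 averaged 965 ± 177 CPM across fibre1, against 896 ± 85.3 CPM across fibre2B (0.11 ± 0.16, edgeR adjusted p = 0.696), and without fibre1 pigs 5 and 6 its value was -0.0077. RPL4, the only other large-subunit gene with a positive value, had 0.05 ± 0.16. RPL5, which enters the ribosome with RPL11 and the 5S RNA, had -0.22 ± 0.15 (edgeR adjusted p = 0.337). RPL4 and RPL5 were added to the named genes after their values were seen.

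Of the 15 genes of the small subunit 14 had negative values, with a median of -0.24, and 1 passed (6.67%, beside 9.01% of all genes). At an unadjusted edgeR p under 0.05, 6 were lower in fibre1 (40%, beside 14.7% of all genes) and 0 higher. RPS27L, a paralog of RPS27 that p53 induces in human cells, was lower in fibre1. It had 97.9, 116 and 126 CPM in fibre1 (lowest, median, highest), against 141, 156, 196 and 155 CPM in fibre2B pigs 10, 11, 14 and 16. Each fibre1 pig was below each fibre2B pig. The log2 fold change was -0.52 ± 0.13 (SE; edgeR adjusted p = 0.0283). Leaving out 1 pig ended the call for fibre1 pigs 1 (edgeR adjusted p = 0.0507), 2 (0.0621) and 6 (0.0521) and for fibre2B pigs 14 (0.111) and 16 (0.0647). Without fibre2B pig 14 it passed with DESeq2 (0.0255) and with quality weights (0.0354). Over 25 alternatives the adjusted p ran from 0.0025 to 0.111, and the log2 fold change from -0.73 to -0.405. Without TMM factors RPS27L also missed the threshold (0.0555), as it did without fibre1 pigs 5 and 6 (0.0796).

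RPS23, a protein of the decoding centre, had 468, 551 and 604 CPM in fibre1, against 770.3, 666, 789 and 618 CPM in fibre2B pigs 10, 11, 14 and 16. Those groups did not overlap either, yet the gene did not pass (-0.40 ± 0.13, edgeR adjusted p = 0.0755). Of all tested genes 4.15% were higher in each fibre2B pig than in any fibre1 pig, and 3.4% were higher in each fibre1 pig, against 2 and 0 of the 25 ribosomal protein genes. RPS21 had 152, 220.4 and 274 CPM in fibre1, against 311, 306, 380.3 and 251 CPM in fibre2B pigs 10, 11, 14 and 16, with the largest negative value of the subunit (-0.55 ± 0.18, edgeR adjusted p = 0.0632). It passed with DESeq2 (0.0326), upper-quartile factors (0.0443) and without fibre1 pig 17 (0.0419), among alternatives from 0.0326 to 0.213. RPS12 averaged 683 ± 72.5 CPM across fibre1, against 910.2 ± 171 CPM across fibre2B (-0.41 ± 0.15, edgeR adjusted p = 0.0921). RPS23 and RPS12 passed with DESeq2 alone (0.0170 and 0.0360), where their alternatives reached 0.219 and 0.285.

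The other small-subunit genes with negative values ranged from -0.39 (RPS28) to -0.0129 (RPS3). Without the 4 paralogs and relatives, RPS27L, RPL26L1, RPL36AL and RPL7L1, the other 21 ribosomal protein genes had a median of -0.23, with 18 negative and 0 passing (6 at an unadjusted p under 0.05).

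**Figure D4:**
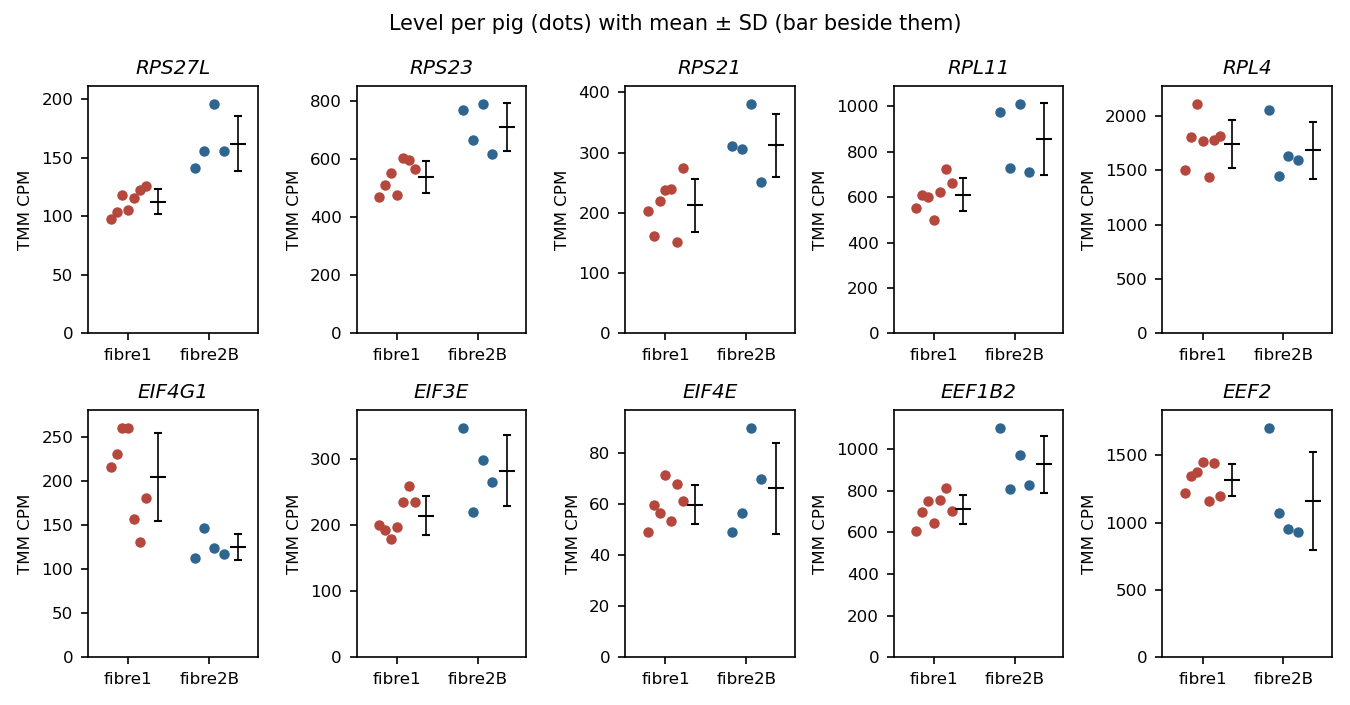
TMM-normalised CPM of 10 genes in each pig (dots; fibre1 red, fibre2B blue), with mean ± SD beside them and axes from 0. RPS27L and RPS23 separate the groups (fibre1 at most 126 and 604 CPM, fibre2B at least 141 and 618 CPM), RPL4 does not, and EIF4G1 is higher in 6 of 7 fibre1 pigs than in any fibre2B pig.

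Some markers of other cells differed in the same contrast. Of 6 fibroblast markers 5 had an ID, whose summed level was 472 to 976 CPM in fibre1 and 743 to 1437 CPM in fibre2B, and DCN and LUM of the 4 tested were lower in fibre1. Of 5 red cell markers 4 had an ID, with 137 to 468 CPM in fibre1 and 423 to 957 CPM in fibre2B, and HBB of the 3 tested was lower in fibre1. Of 7 macrophage and leukocyte markers 4 had an ID, with 4.10 to 13.1 CPM in fibre1 and 9.33 to 20.1 CPM in fibre2B, and 0 passed. Of 5 satellite cell markers 4 had an ID, with 25.7 to 37.2 CPM in fibre1 and 32.7 to 55.4 CPM in fibre2B. VCAM1 was lower in fibre1, while the other 3 did not pass. Of those, CDH15 had a positive value (0.16 ± 0.28), and CALCR and MYF5 had negative ones. No ID of these lists was at 0 in every pig. Endothelial (61.5 to 126 CPM in fibre1 and 72.3 to 113 CPM in fibre2B), smooth muscle and pericyte (48.9 to 94.1 CPM in fibre1 and 45.9 to 71.5 CPM in fibre2B) and adipocyte sums (1.70 to 6.43 CPM in fibre1 and 1.47 to 5.42 CPM in fibre2B) overlapped widely. Of the 5 tested smooth muscle and pericyte markers KCNJ8 was lower in fibre1, while the other 4 had positive values that did not pass and the median was 0.43. None of the tested endothelial, leukocyte or adipocyte markers passed by edgeR (at an unadjusted p under 0.05, 1 endothelial marker was higher, 1 endothelial and 1 leukocyte marker lower, and 0 adipocyte markers). The part of these cells in the ribosomal protein values was not tested.

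Initiation begins with eIF4F, in which EIF4E binds the cap, EIF4A unwinds the message and the scaffold EIF4G1 holds both. EIF4G1 was higher in fibre1. It had 131, 216 and 260.4 CPM in fibre1 (lowest, median, highest), against 112, 147, 125 and 117 CPM in fibre2B pigs 10, 11, 14 and 16. Fibre1 pigs 5 and 6 were the highest, at 260.4 and 260.2 CPM, and only fibre1 pig 12 (131) fell below a fibre2B pig (pig 11, 147). The log2 fold change was 0.71 ± 0.19 (SE; edgeR adjusted p = 0.0397). Dropping any of fibre1 pigs 1, 2, 5 and 6 or of fibre2B pigs 10, 14 and 16 ended the call (0.0653 to 0.112, edgeR). It was also lost with no filter (0.0515), with the abundance share above as a covariate (0.57, edgeR adjusted p = 0.0677), without fibre1 pigs 5 and 6 (0.55, 0.112) and without TMM factors (0.47, 0.105). Over 25 alternatives the adjusted p of EIF4G1 ran from 0.0076 to 0.112.

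None of the partners of the scaffold passed. EIF4E averaged 59.7 ± 7.78 CPM across fibre1, against 66.1 ± 17.8 CPM across fibre2B (log2 fold change -0.15 ± 0.165, edgeR adjusted p = 0.582), and 0.04 without fibre2B pig 14, its highest pig at 89.5 CPM. EIF4A1 had -0.08 ± 0.21 and EIF4A2 0.08 ± 0.13. EIF4EBP1, which keeps EIF4E from the scaffold until mTORC1 phosphorylates it, averaged 119.9 ± 24.1 CPM across fibre1, against 102 ± 18.1 CPM across fibre2B (0.23 ± 0.17, edgeR adjusted p = 0.386). Of the 10 members whose names start with EIF4, EIF4G1 alone passed, which is 10% beside 9.01% of all genes. At an unadjusted edgeR p under 0.05, 2 of them were higher and 0 lower. The difference between EIF4G1 and its partners was not tested. EIF4A1 and EIF4A2 were named after their values were seen.

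The 9 measured subunits of eIF3, the large complex that keeps the small subunit ready for a message, had values on both sides, and 0 passed by edgeR (2 lower and 1 higher at an unadjusted p under 0.05, and 0 by DESeq2). EIF3E had 179.7, 201 and 260.2 CPM in fibre1 (lowest, median, highest), against 347, 220.01, 299 and 266 CPM in fibre2B pigs 10, 11, 14 and 16. The groups overlapped through fibre2B pig 11, and the log2 fold change was -0.40 ± 0.15 (SE; edgeR adjusted p = 0.106). EIF3M (-0.27 ± 0.12), EIF3H (-0.26 ± 0.16) and EIF3L (-0.09 ± 0.16) also had negative values. EIF3A (0.28 ± 0.13), EIF3D (0.24 ± 0.16), EIF3J (0.16 ± 0.14), EIF3G (0.16 ± 0.16) and EIF3I (0.01 ± 0.18) had positive ones. The other subunits were named after their values were seen.

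Of the genes that act on eIF2, which carries the first tRNA, 0 passed by edgeR or DESeq2 (1 kinase lower and 1 kinase higher at an unadjusted p under 0.05). EIF2AK3, the kinase PERK that phosphorylates eIF2 under stress of the endoplasmic reticulum, had 2.14, 3.18 and 4.599 CPM in fibre1, against 5.55, 4.85, 4.598 and 4.43 CPM in fibre2B pigs 10, 11, 14 and 16. Only fibre1 pig 17 reached into the fibre2B range. The log2 fold change was -0.58 ± 0.20 (edgeR adjusted p = 0.0740), and it passed without fibre1 pig 17 (0.0368) and with quality weights (0.0475), among alternatives from 0.0368 to 0.177. EIF2AK1, the kinase that senses haem, had a value on the other side, 3.89 ± 1.082 CPM in fibre1 and 2.57 ± 0.55 CPM in fibre2B (0.60 ± 0.24, edgeR adjusted p = 0.115). These low genes rested on 32 to 157 counts per pig. The 7 genes of eIF2, eIF2B and related proteins had a median of 0.18. EIF2AK1 was named after its value was seen.

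EIF1B, a paralog of the start-codon factor EIF1, averaged 28.6 ± 5.35 CPM across fibre1, against 37.5 ± 4.22 CPM across fibre2B (-0.39 ± 0.15, edgeR adjusted p = 0.108). It passed only without fibre1 pig 17 (-0.48, 0.0415), and its alternatives reached 0.292. EIF6, which keeps the subunits apart and is needed to make the large one, averaged 49.1 ± 6.13 CPM across fibre1, against 50.7 ± 8.21 CPM across fibre2B (-0.0459 ± 0.14, edgeR adjusted p = 0.850). The sign of EIF6 turned without fibre2B pig 14 (0.07).

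None of the 5 elongation genes passed by edgeR (1 lower and 1 higher at an unadjusted p under 0.05, and 1 by DESeq2). EEF1B2, the exchange factor that reloads eEF1A with GTP, had 607, 702 and 815 CPM in fibre1 (lowest, median, highest), against 1099, 807, 972 and 827 CPM in fibre2B pigs 10, 11, 14 and 16. Fibre1 pig 12 (815) was the only fibre1 pig above the lowest fibre2B pig, and fibre2B pigs 10 and 14 were highest, as for RPS23. The log2 fold change of EEF1B2 was -0.38 ± 0.14 (SE; edgeR adjusted p = 0.0969), and it passed with DESeq2 alone (0.0329, among alternatives up to 0.246). EEF1D, another subunit of the same exchange complex, averaged 804 ± 179 CPM across fibre1, against 635 ± 48.0 CPM across fibre2B (0.34 ± 0.18, edgeR adjusted p = 0.224). Its highest pigs were fibre1 pigs 5 and 6, at 1103 and 918 CPM.

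EEF2, which moves the ribosome by a codon, had 1162, 1346 and 1450.5 CPM in fibre1, against 1699, 1074, 949 and 929 CPM in fibre2B pigs 10, 11, 14 and 16. Fibre2B pig 10 was above all fibre1 pigs and the other 3 were below all of them. The log2 fold change was 0.18 ± 0.18 (edgeR adjusted p = 0.546), and it was 0.42 without pig 10 (0.123). EEF2K, the kinase that inhibits EEF2, averaged 81.5 ± 30.4 CPM across fibre1, against 77.6 ± 19.0 CPM across fibre2B (0.07 ± 0.28, edgeR adjusted p = 0.892). Its sign turned in several settings. EEFSEC, which delivers selenocysteine, averaged 6.70 ± 2.32 CPM across fibre1, against 4.55 ± 0.44 CPM across fibre2B (0.55 ± 0.25, edgeR adjusted p = 0.169).

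Genes around the ribosome were listed as well. Of 17 genes of mTORC1 and its translational targets 14 were tested, and 3 were higher and 0 lower in fibre1, with a median of 0.38. That is 21.4% higher, beside 4.38% of all genes. At an unadjusted edgeR p under 0.05 the list had 7 higher (50%, beside 14.2% of all genes) and 1 lower (7.14%, beside 14.7%). RPTOR, the mTORC1 subunit that recruits substrates, had 7.13, 11.98 and 15.2 CPM in fibre1 (lowest, median, highest), against 5.82, 7.11, 6.58 and 5.99 CPM in fibre2B pigs 10, 11, 14 and 16. All fibre1 pigs were above all fibre2B pigs, by 7.13 against 7.11 CPM at the nearest point. Its log2 fold change was 0.86 ± 0.18 (edgeR adjusted p = 0.0191). AKT1S1, the mTORC1 inhibitor PRAS40, averaged 70.5 ± 15.5 CPM across fibre1, against 44.8 ± 5.66 CPM across fibre2B (0.65 ± 0.17, edgeR adjusted p = 0.0373), without overlap. RPS6KB2, a kinase that phosphorylates ribosomal protein S6, averaged 30.7 ± 4.90 CPM across fibre1, against 21.0 ± 1.94 CPM across fibre2B (0.55 ± 0.15, edgeR adjusted p = 0.0398). These calls were lost in several fits with 1 pig left out, and those fits called fewer genes in all (0 to 831, against 1021). Over the fits with 1 pig left out, RPTOR had log2 fold changes of 0.78 to 0.95. AKT1S1 had 0.56 to 0.72 and RPS6KB2 0.495 to 0.62. RPTOR lost its call without fibre2B pig 10, 14 or 16 (0.0546 to 0.0693). AKT1S1 (0.0550 to 0.123) and RPS6KB2 (0.0614 to 0.125) did so when fibre1 pig 1, 2, 5 or 6, or else any of the fibre2B pigs, was dropped. Without TMM factors all 3 missed the threshold (0.0748 to 0.205), with log2 fold changes of 0.34 for RPS6KB2 and 0.42 for AKT1S1, as they did without fibre1 pigs 5 and 6 (0.0622 to 0.116). The covariate also ended the calls of AKT1S1 (0.0569) and RPS6KB2 (0.0741), no filter that of RPS6KB2 (0.0549), and DESeq2 without fibre2B pig 14 both (0.0558 and 0.0628). RPS6KB1, the other S6 kinase of the list, had a value on the other side, 34.2 ± 4.705 CPM in fibre1 and 44.6 ± 3.95 CPM in fibre2B (-0.38 ± 0.13, edgeR adjusted p = 0.0740), and was named after its value was seen. The list holds activators, inhibitors and targets together.

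Of 6 termination and recycling genes ABCE1, which splits the finished ribosome into its subunits, was lower in fibre1. It had 15.4, 17.9 and 22.2 CPM in fibre1, against 29.4, 25.7, 29.5 and 26.2 CPM in fibre2B pigs 10, 11, 14 and 16, without overlap. The log2 fold change was -0.56 ± 0.13 (edgeR adjusted p = 0.0246), which did not pass once fibre1 pig 2 or 1 of fibre2B pigs 10, 14 and 16 was dropped (0.0520 to 0.0851), without fibre1 pigs 5 and 6 (0.0781) and without TMM factors (0.0709). PELO and ETF1, which act on stalled ribosomes and stop codons, had -0.19 ± 0.16 and -0.11 ± 0.12. The median of the list was -0.15. Its 1 lower gene is 16.7% of the 6 tested, beside 4.63% of all genes. At an unadjusted edgeR p under 0.05 the list had 1 lower (16.7%, beside 14.7% of all genes) and 0 higher.

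Of 20 ribosome biogenesis genes 17 were tested, with 1 higher in fibre1, 0 lower and a median of 0.20. The 1 higher gene is 5.88% of those tested, beside 4.38% of all genes, and at an unadjusted p under 0.05 the list had 7 higher (41.2%, beside 14.2% of all genes) and 1 lower. UBTF, which opens ribosomal DNA for RNA polymerase I, had 8.87, 10.9 and 14.01 CPM in fibre1, against 5.73, 8.76, 3.92 and 6.41 CPM in fibre2B pigs 10, 11, 14 and 16, without overlap. Its log2 fold change was 0.88 ± 0.21 (edgeR adjusted p = 0.0248), lost without fibre2B pig 10, 14 or 16 (0.0569 to 0.0839), without fibre1 pigs 5 and 6 (0.0796) and without TMM factors (0.111). DKC1 (0.43 ± 0.16, edgeR adjusted p = 0.106) and NOP2 (0.51 ± 0.20, edgeR adjusted p = 0.120), which modify ribosomal RNA, did not pass, and passed with quality weights (0.0369 and 0.0437). Of 4 tested proteins of the ribosome outside the naming rule 0 passed by edgeR (0 at an unadjusted p under 0.05), with a median of 0.0077. They are FAU (0.11 ± 0.15), RPLP2 (-0.07 ± 0.15), RPLP1 (0.05 ± 0.18) and RACK1 (-0.0343 ± 0.18), the last named after its value was seen.

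**Figure D5:**
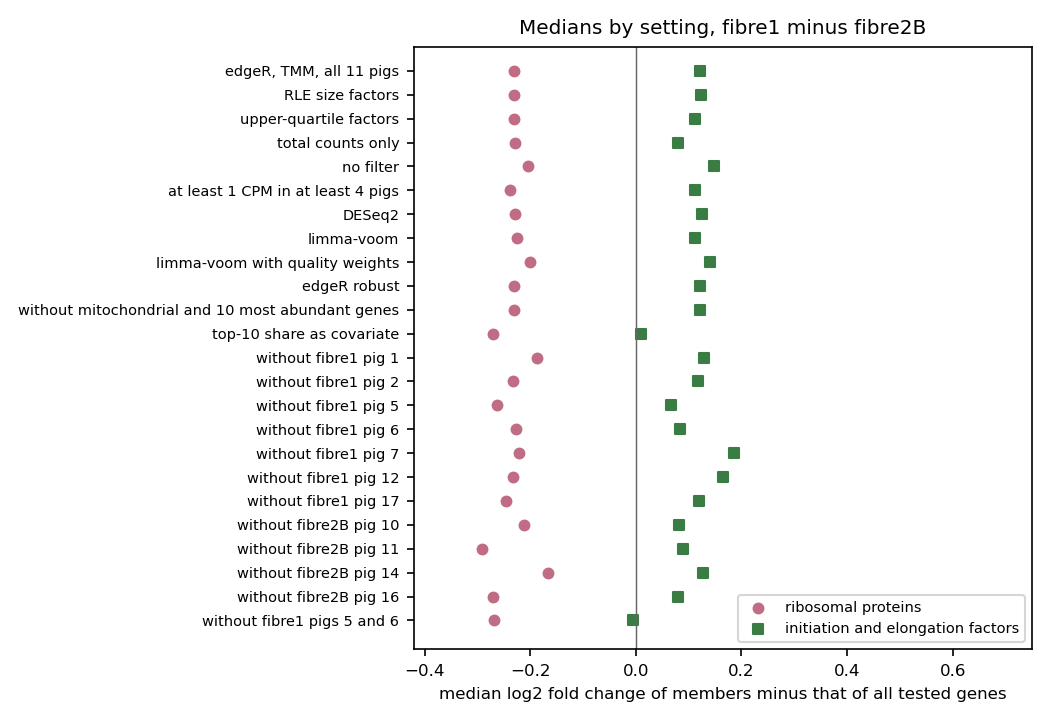
Median log2 fold change (fibre1 minus fibre2B) of ribosomal protein genes (circles) and of factor genes (squares), each minus the median of all tested genes, under each setting or with the named pigs left out. Ribosomal protein medians lie between -0.29 and -0.17 in the settings drawn, and factor medians between -0.0054 and 0.185.

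Set against the median of all tested genes, the ribosomal protein median was -0.23 with TMM factors and -0.23 without them, while the factor median was 0.12 and 0.08. A change of scaling shifts most genes alike, so subtracting a median takes most of it out beforehand. The likeness with and without TMM factors is therefore no check on the scaling. The ribosomal protein value nearest to 0 came with fibre2B pig 14 left out (-0.17 by edgeR and -0.16 by DESeq2). The gap between both medians, ribosomal proteins minus factors, was -0.35, and ran from -0.41 to -0.26 over 25 alternatives. It too takes out most of a change of scaling, so only the other alternatives bear on it.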

How the data were processed

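RNA-seq of longissimus lumborum from 11 pigs was used, 7 fibre1 and 4 fibre2B. The deposited values are expected counts (estimated reads per gene, not normalised). TruSeq libraries came from 300 ng of total RNA per the labels' protocols. The submitters' processing notes name CASAVA 1.8.2, FastQC, STAR, RSEM, edgeR, DESeq2 and Sscrofa10.2, with no roles, and the design text names 50 single-end cycles and 5 technical repetitions. A list pairing gene IDs with symbols gave names to 11804 of 25322 rows. Isoform counts were not used. There were 0 columns of other samples.

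Counts were rounded and tested with edgeR 4.0.16 in R 4.3.3: filterByExpr, TMM factors, the quasi-likelihood test on group alone, Benjamini-Hochberg adjustment over 11329 genes, threshold 0.05. Fold changes are log2, fibre1 minus fibre2B, and each standard error comes from the fold change and its F statistic. CPM are TMM-normalised, except in the rule of at least 1 CPM in at least 4 pigs, which uses total counts. Log2 levels add 0.5. Replicates are pigs, numbered by their titles.

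The genes, the lists and the naming rule were chosen with earlier results of these data known. The rule named, in each of the 4 classes, the 4 smallest p and the highest and lowest fold change, 3 genes of each further list, and 16 genes always, of which 8 (EEF1A1, EEF1A2, RPL3, RPL3L, RPS6, EIF2S1, EIF4EBP2 and EIF5A) had no member here and are not analysed here. Alternatives used other scaling, filters, DESeq2 1.42.0, limma 3.58.1 (voom, also weighted by sample quality), edgeR's robust option, a covariate, and fewer pigs. Fold changes by protein length, planned, were not run, since no protein lengths were used here. The fit was tested on simulated data. A member stayed in the fits and counts and is not reported here by name.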

Additional observations from a re-analysis of the deposited data

Results flagged for a closer look

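In groups of 4 to 10 pigs, values were looked at where the gap from the extreme pig to its nearest neighbour was large against the range of the group (Dixon's 95% critical value). Of 94 groups 7 were found, and chance gives about 1 in 20. In fibre1, pig 5 had 1317 CPM of RPL29, where the next pig had 1004, and 27.2 CPM of DKC1, where the next had 20.6. Fibre1 pig 12 had 825.6 CPM of RPS12, where the next had 695, and the highest total count, 36374829. In fibre2B, pig 16 had 564.1 CPM of EEF1D, where the next had 651, and pig 11 had 19.5 CPM of FAU, where the next had 15.9. The median deviation of the 38 factor genes from their own means was 0.0449 in fibre2B pig 14 and -0.0968 in the nearest fibre2B pig, on the log2 scale.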

How the results depend on the processing

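Of the results for named genes under 25 alternatives, 865 kept direction and side of the threshold, 59 lost a call, 23 gained one and 28 turned in sign. The causes were not tested. Calls over all genes, 1021 as reported, were 157 with total counts only, 1740 with DESeq2, 1748 with quality weights, 460 with a covariate for how much of each library its 10 top genes took, 28 without fibre1 pigs 5 and 6, and 0 to 1548 with 1 pig left out. Without fibre2B pig 14, a check chosen after seeing the data, DESeq2 called 776 and quality weights 1095. Ribosomal protein calls, 1 as reported, were 2 with upper-quartile factors or quality weights, 5 with DESeq2, 0 with total counts only or without fibre1 pigs 5 and 6, and 0 to 2 with 1 pig left out. Factor calls, 1 as reported, were 2 with DESeq2 or quality weights, 0 with total counts only, no filter, the covariate or without fibre1 pigs 5 and 6, and 0 to 3 with 1 pig left out. The ribosomal protein median was -0.42 with total counts only. The factor median was -0.11 with total counts only, 0.0164 with the covariate and 0.0065 without fibre1 pigs 5 and 6. The difference in ribosomal protein share was -0.490 percentage points over all counts (means 1.53% in fibre1 and 2.02% in fibre2B). It was -0.817 percentage points without mitochondrial and the 10 most abundant genes in the denominator. That denominator is smaller, so both means rose, to 2.81% in fibre1 and 3.63% in fibre2B.

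Signs that turned were of genes that missed the threshold throughout. With total counts only they were EEF2K (-0.21), EEF2 (-0.0088), RPL29 (-0.12), FAU (-0.0888), RPLP1 (-0.18) and PPP1R15A (-0.0968). With the covariate they were EEF2K (-0.13), RPL29 (-0.0155), RPLP1 (-0.11) and PPP1R15A (-0.50). Without fibre1 pigs 5 and 6 they were EEF2K (-0.16), RPL29 (-0.0077), RPLP1 (-0.0737) and PPP1R15A (-0.36). EEF2K was -0.0026 with voom, and EIF6 0.0224 with quality weights. Without fibre2B pig 14, EIF6 was 0.0805 with DESeq2 and 0.0975 with quality weights, and EIF4E 0.0503 with DESeq2. With 1 pig left out, EEF2K ran from -0.0453 to 0.26, EIF6 from -0.11 to 0.0734, EIF4E from -0.27 to 0.0418, RPLP1 from -0.0297 to 0.12 and PPP1R15A from -0.10 to 0.52.

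No paired analysis was possible because no pig number occurs in both groups. Depth limits the lowest genes most, since EIF2AK1 rested on 32 counts in its lowest pig.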

Other observations

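The enzymes that charge tRNAs had values on both sides. Of 20 listed cytosolic aminoacyl-tRNA synthetases 17 were tested and 0 passed by edgeR's quasi-likelihood test (3 higher and 4 lower in fibre1 at an unadjusted p under 0.05), with a median log2 fold change of 0.12. RARS1 for arginine averaged 33.6 ± 4.601 CPM across fibre1, against 46.5 ± 7.45 CPM across fibre2B (SD; -0.47 ± 0.14, edgeR adjusted p = 0.0508). It passed with DESeq2 (0.0234), upper-quartile factors (0.0397) and the filter of 1 CPM in 4 pigs (0.0421), and without fibre1 pig 12 (0.0487) or pig 17 (0.0347). TARS1 for threonine had -0.37 ± 0.14 (edgeR adjusted p = 0.0953), while AARS1 for alanine had 0.52 ± 0.18 (edgeR adjusted p = 0.085). For AARS1, DESeq2 gave 0.0481, and dropping fibre1 pig 12 gave 0.045. Among genes that answer eIF2 phosphorylation, 3 were tested and 0 passed (0 at an unadjusted p under 0.05). These were PPP1R15B (-0.41 ± 0.19), ASNS (0.53 ± 0.36) and PPP1R15A (0.23 ± 0.54).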
